A study of Mus musculus with 17 samples.

Results

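The cytosolic translation factor genes, which encode the initiation factors eIF1 to eIF6, the elongation factors eEF1 and eEF2 and proteins that bind or modify them, were followed across 5 sorted progenitor fractions of adult mouse bone marrow. Members were taken by name: probe sets with 1 gene symbol beginning with Eif1 to Eif6, Eef1 or Eef2, leaving out the eIF2 kinases and the sex-linked genes of the eIF2 gamma subunit. The rule used no difference between fractions, and it gave 52 of the 18193 genes measured, each read by the probe set with the highest mean over the 17 arrays. Together they hold 137 probe sets, of which 16 genes have 1 and 36 have several. Other genes of these families, among them Eif2s1, Eif3g, Eif4g1, Eef1g and Eif1, were not analysed here.

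The arrays, 1-colour Affymetrix 3-prime arrays, came from mice aged 10 to 14 weeks, and the labels give no genotype, strain or treatment. The fractions were common lymphoid progenitors (CLP, Lin-Sca1lowKitlowIL7r+Flk2+, 3 arrays), megakaryocyte progenitors (MkP, Lin-Sca1-Kit+Itga2b+Slamf1+, 3 arrays), an early erythroid stage (preCFUE, 3 arrays), a precursor of megakaryocytes and red cells (preMegE, 5 arrays) and a precursor of granulocytes and monocytes (preGM, 3 arrays). The last 3 share the gate Lin-Sca1-Kit+Itga2b-FcgRlow and were told apart as Slamf1+Enghigh for preCFUE, Slamf1+Englow for preMegE and Slamf1-Englow for preGM. Fractions were compared as CLP with preGM, MkP with preCFUE, each of MkP and preCFUE with preMegE, and preMegE with preGM. These comparisons share arrays with one another. The sample titles give the gates, and the short names other than preMegE follow common use of such gates. Whether replicate arrays stand for separate animals or sorts is not given, so p-values rest on a spread between arrays that may be only technical.

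Translation begins when the eIF4F complex, made of the cap-binding protein eIF4E, the scaffold eIF4G and the helicase eIF4A, brings an mRNA to a small ribosomal subunit that carries eIF3 and the initiator tRNA held by eIF2. The exchange factor eIF2B recharges eIF2 with GTP, eIF5B joins the large subunit, and eEF1A and eEF2 then move tRNAs and the ribosome along the message. Cells adjust the rate through eIF4E-binding proteins, which mTORC1 switches off, through eIF2 kinases, which block eIF2B, and through the eEF2 kinase. Blood stem cells are known for a low rate of protein synthesis that depends on eIF4E-binding proteins, and erythroid cells for matching translation to heme through the eIF2 kinase encoded by Eif2ak1.

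Promoters are shown for 4 members on which results below turn: 3 that were highest in preCFUE or preMegE and lowest in CLP, and Eef2k, which was highest in CLP. Of the 52 members, 41 were found in RefSeq's promoter table (GRCm38.p6, 250 bases before to 50 after each gene's start, with the first listed start where a gene has several). Each run covers 100 bases before to 20 bases after the start, 5′ to 3′ on the gene's strand, with the matched motif in capitals. Eif4e2 and Eif2b4 are shown for CCGGAAGT, the core bound by GABP and other ETS factors, and Eif3k and Eef2k for CACGTG, the E-box bound by Myc, Max and USF. Eif4e2 and Eef2k have 3 listed starts each.
Eif4e2, chr1:87213811-87213930, plus strand: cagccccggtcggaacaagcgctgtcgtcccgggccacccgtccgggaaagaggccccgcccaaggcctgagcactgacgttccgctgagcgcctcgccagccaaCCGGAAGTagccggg
Eif2b4, chr5:31193120-31193239, minus strand: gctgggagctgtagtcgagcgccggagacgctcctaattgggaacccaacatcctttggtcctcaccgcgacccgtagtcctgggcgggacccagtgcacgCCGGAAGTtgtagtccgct
Eif3k, chr7:28981869-28981988, minus strand: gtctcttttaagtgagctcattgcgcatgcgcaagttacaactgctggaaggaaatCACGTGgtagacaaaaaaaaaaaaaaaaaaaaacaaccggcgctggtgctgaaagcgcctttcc
Eef2k, chr7:120842731-120842850, plus strand: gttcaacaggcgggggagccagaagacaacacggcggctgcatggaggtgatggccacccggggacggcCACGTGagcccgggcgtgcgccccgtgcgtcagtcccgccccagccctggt
Over the promoter windows and both strands, CACGTG stood in 10 of 41 member promoters (24.4%), against 7.24% of all 27025 promoters in the table. CCGGAAGT stood in 7 of 41 (17.1%), against 4% of all promoters. The 7 were those of Eef1b2, Eif2b2, Eif2b4, Eif3d, Eif3l, Eif4e2 and Eif5a2. TGATGNAA, of the kind bound by ATF4 with C/EBP factors, stood in 0 of 41 (4.06% of all), TGACGTCA in 1 (1.88% of all), the NRF1 motif in 1 (0.977% of all), CCAAT in 12 (37.9% of all) and the GATA-type AGATAA in 1 (11.4% of all). None of the 7 motifs contains another. A match describes the letters of these windows only.

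The genes that the gates name, or lineage genes, separated some fractions and not others. Il7r averaged 1752 ± 553 in CLP and 60.5 ± 39.2 in preGM (RMA intensity, mean ± SD, as throughout, with n = 5 arrays for preMegE and n = 3 for the others). Itga2b averaged 2058 ± 249 in MkP, 62.5 ± 3.91 in preCFUE and 319 ± 64.2 in preMegE, Slamf1 101 ± 13.2 in preMegE and 10.6 ± 1.75 in preGM, Gata1 1219 ± 168 in preMegE and 89.2 ± 1.88 in preGM, and Mpo 68.1 ± 59.8 in preMegE and 7503 ± 923 in preGM. Slamf1, which gates preCFUE too, was at 20.4 ± 1.89 there. Flt3 (Flk2) averaged 2118 ± 398 in CLP and 1090.0 ± 50.5 in preGM, and Kit 110.4 ± 54.8 in CLP, 185 ± 57.4 in MkP, 540.1 ± 41.3 in preCFUE, 680.5 ± 180.0 in preMegE and 476 ± 30.6 in preGM. The MkP fraction, gated as Kit+, was thus lower in Kit RNA than preMegE (adjusted p = 0.000299) and preCFUE (adjusted p = 0.00223). Eng, which separates the gates of preCFUE and preMegE, did not separate their arrays, at 238 ± 44.2 in preCFUE and 234 ± 16.2 in preMegE (adjusted p = 0.996). All these values are of RNA, whereas such gates read surface protein, which was not measured here. CLP replicate 2 correlated on average more with the arrays of preGM (0.961) than with those of its own fraction (0.949). The log2 ratio of 3-prime over 5-prime Gapdh probe sets, which rises as RNA shortens, was 4.07 ± 1.06 in CLP, 3.85 ± 0.41 in MkP, 3.49 ± 0.62 in preCFUE, 3.58 ± 0.56 in preMegE and 3.27 ± 0.62 in preGM. The summed intensity of 5 neutrophil markers ran from 72.3 to 183.5 in CLP, 108.3 to 1354 in MkP, 192 to 377 in preCFUE, 87.0 to 1526 in preMegE and 203 to 1504 in preGM, and 0 of the 5 passed a test between fractions. Summed over their lists, macrophage markers stayed between 56.0 and 107 in all arrays, mature B and plasma cell markers between 40.3 and 136, mast cell and basophil markers between 58.5 and 331, T and NK cell markers between 100 and 621, and late erythroid markers between 27.3 and 54.2. Of the 20 measured genes of these 5 lists, 6 passed the F test, Adgre1 and the following 5. Cd68 averaged 13.3 ± 4.65 in CLP, 11.8 ± 1.08 in MkP, 10.3 ± 1.47 in preCFUE, 9.71 ± 1.54 in preMegE and 46.7 ± 4.56 in preGM, Mcpt8 between 17.9 and 31.0 in CLP, MkP, preCFUE and preMegE and 104 ± 33.4 in preGM, and Cpa3 13.8 ± 2.03 in CLP, 29.7 ± 8.60 in MkP, 25.9 ± 3.23 in preCFUE, 170.1 ± 36.4 in preMegE and 153 ± 19.4 in preGM. Cd79a averaged 71.7 ± 12.8 in CLP, 16.3 ± 2.79 in MkP, 15.9 ± 2.23 in preCFUE, 14.5 ± 2.49 in preMegE and 15.6 ± 0.633 in preGM, and Nkg7 240.2 ± 82.0 in CLP, 352 ± 87.9 in MkP, 39.4 ± 6.74 in preCFUE, 458 ± 71.1 in preMegE and 318 ± 82.1 in preGM. The part of these values in the results below was not tested. In sorted populations, fewer cells that express a gene and less of its RNA per cell cannot be told apart.

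Most translation factor genes had their highest fraction mean in preCFUE, and most, not always the same genes, had their lowest in CLP. Of the 52, 37 differed among the fractions by limma's moderated F test at an adjusted p under 0.05. Of all 18193 genes 34.9% did, and 63.6% of the 1246 genes at least as bright as the median member, 26 of which are members. At an unadjusted p under 0.05, 42 of the 52 did, against 8227 of all 18193 genes and 950 of the 1246 bright genes. The fraction mean was highest in preCFUE for 30 of 52 members (57.7%), against 24.3% of all genes and 43.2% of the bright genes. It was lowest in CLP for 37 of 52 (71.2%), against 28.8% of all genes and 58.7% of the bright genes, and lowest in MkP for another 10. Between the highest and the lowest fraction mean lay a median of 1.12 on the log2(intensity + 16) scale for the members and 0.45 for all genes. The members were also brighter, with a median gene mean of 9.03 on that scale against 5.54 for all genes. That scale understates the differences of dim genes, and no median was taken over the bright genes alone. Among the members, the widest difference was that of Eif4ebp1, at 2.33, and the narrowest that of Eef2kmt, at 0.20.

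**Figure D1:**
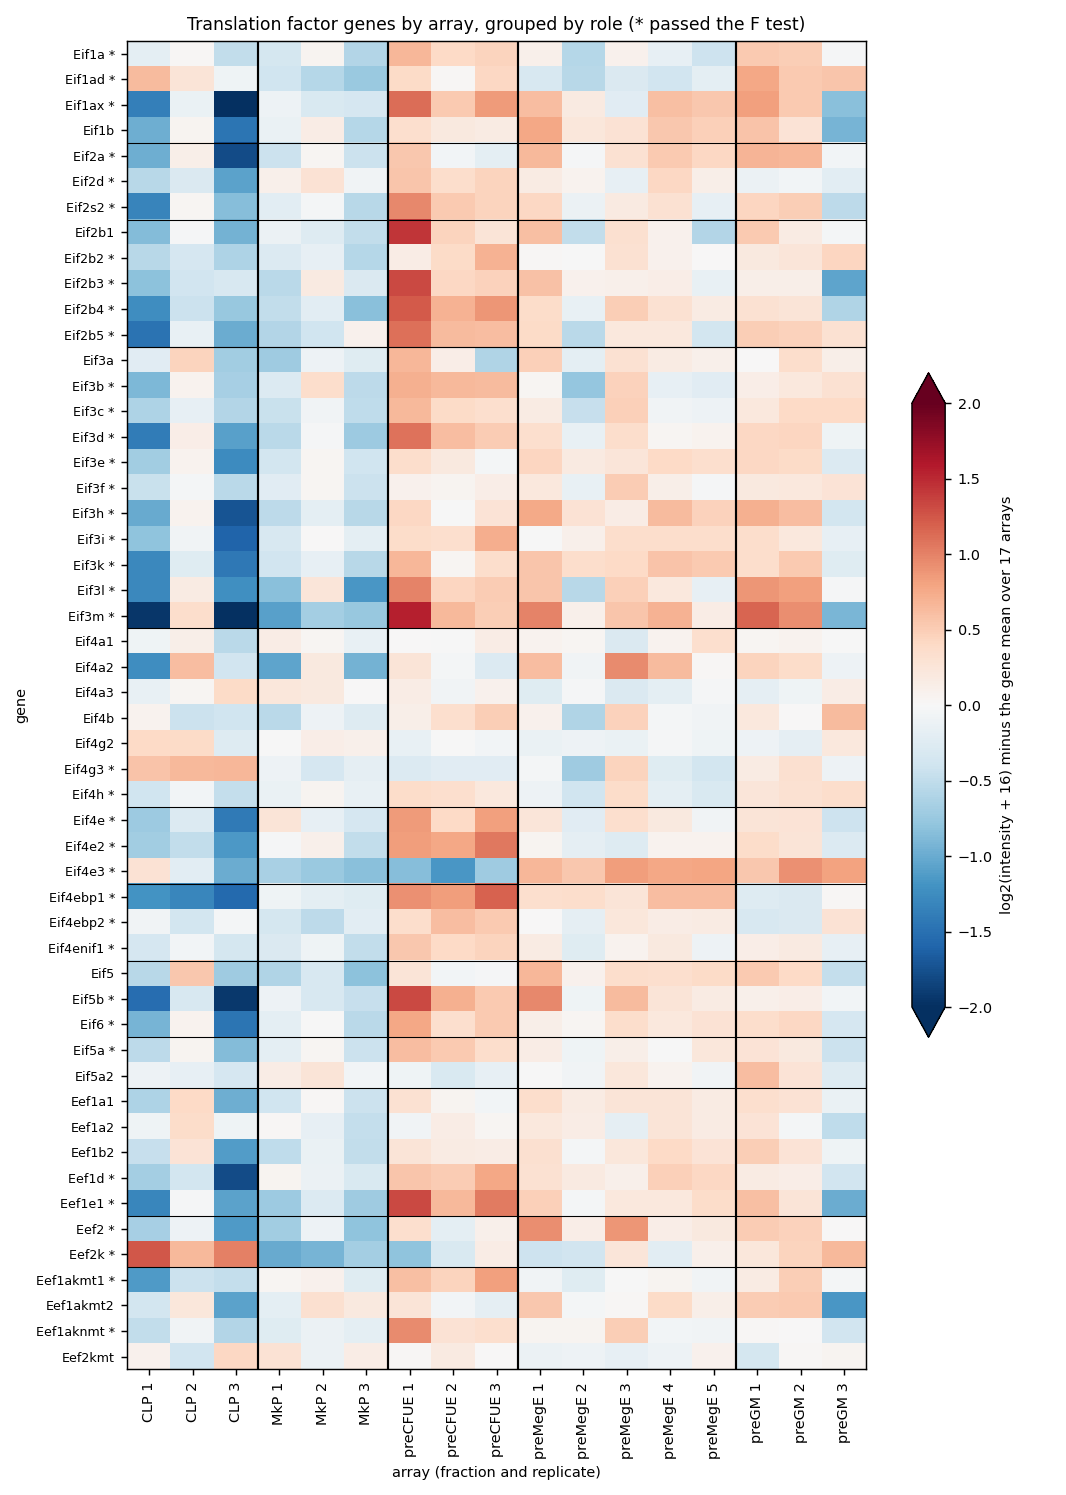
Heat map of the 52 translation factor genes (rows, grouped by role) in 17 arrays (columns, by fraction), where the colour is log2(intensity + 16) minus the gene's mean over all arrays and an asterisk marks an adjusted F test p under 0.05. The 3 preCFUE columns are mostly red, CLP replicates 1 and 3 are mostly blue, and Eef2k and Eif4g3 are red in all 3 CLP arrays.

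Bright genes as a whole moved the same way. Taken against each gene's own mean, the median deviation of the members was -0.64, -0.02 and -0.86 in CLP, -0.28, -0.09 and -0.45 in MkP, 0.54, 0.33 and 0.35 in preCFUE, 0.27, -0.07, 0.26, 0.19 and 0.10 in preMegE, and 0.32, 0.28 and -0.09 in preGM. That of the 1246 bright genes was -0.47, 0.03 and -0.67 in CLP, -0.15, -0.002 and -0.30 in MkP, 0.23, 0.17 and 0.23 in preCFUE, 0.16, -0.16, 0.26, 0.16 and 0.10 in preMegE, and 0.25, 0.20 and 0.003 in preGM. CLP replicates 1 and 3 and MkP replicates 1 and 3 were low for both sets, preMegE replicate 2 was low for the bright genes, and CLP replicate 2 lay near 0. Over all genes the median deviation stayed between -0.036 and 0.004. Arrays were therefore also centred on the bright genes, a choice made after these values were seen, which moved the median of all genes to 0.46 in CLP against preGM, 0.27 in MkP against preMegE, -0.12 in preCFUE against preMegE and 0.40 in MkP against preCFUE.

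**Figure D2:**
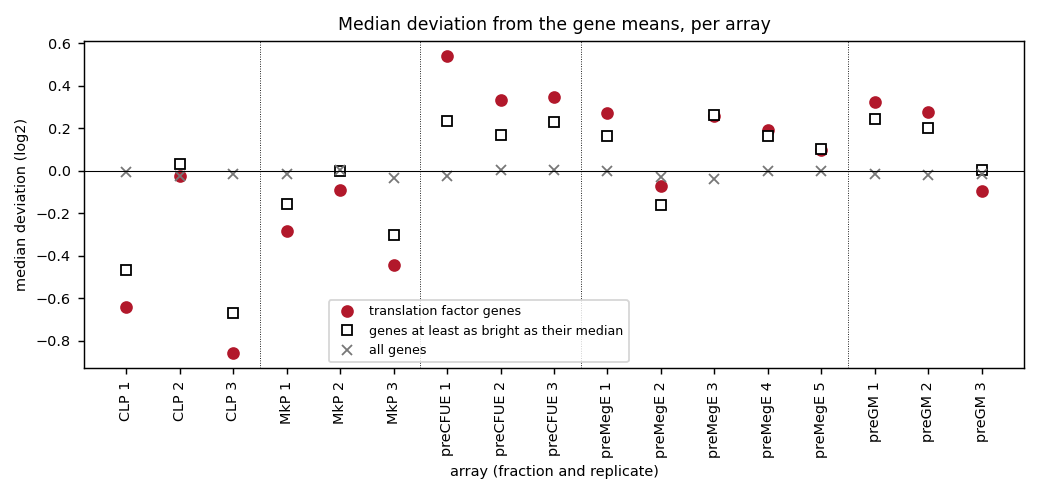
Median deviation from the gene means (log2, vertical axis) in each of the 17 arrays (horizontal axis), for the translation factor genes (filled circles), the genes at least as bright as their median (open squares) and all genes (crosses). The circles reach -0.86 in CLP replicate 3 and 0.54 in preCFUE replicate 1, the squares lie on the same side of 0 in most arrays, and the crosses stay near 0.

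The preMegE and preGM fractions, gated apart by Slamf1, differed in few translation factor genes. Of 52 members 2 passed the test, against 8.69% of all genes (2.81% higher, 5.88% lower), and the median log2 fold change of preMegE over preGM was 0.01 for the members and 0.01 for all genes. Eif4ebp1 was higher and Eif1ad lower in preMegE, and both calls held whichever array was left out. With quantile normalization 3 members passed, 1 higher and 2 lower, while 1660 of all 18193 genes did, 652 of them higher.

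In MkP, 6 members were lower than in preMegE and 0 higher: Eif4e3, Eef2, Eif5, Eif3k, Eef2k and Eif4ebp1 (10.3% of all genes passed, 3.98% as higher and 6.37% as lower; 14.5% of the bright genes were lower). The members' median log2 fold change was -0.39, against 0.01 for all genes and -0.27 for the bright genes. Quantile normalization gave 5 calls, 1 higher (Eif4g2, 0.42) and 4 lower, with a median of -0.16, and centring on bright genes gave 6, all lower, with -0.13. Of all 18193 genes, 1953 passed with the first (1084 higher) and 2052 with the second (1278 higher). Under each of these scalings 4 of the 6 genes remained, Eef2, Eif3k, Eif4e3 and Eif5. Without any 1 of MkP replicates 1 and 3 and preMegE replicates 1, 3, 4 and 5, 2 or 3 members passed, and without CLP replicate 2, 13 did. The calls of Eif4e3 and Eif4ebp1 held whichever array was left out.

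In preCFUE, 6 members were higher than in preMegE, namely Eif4e2, Eif1a, Eef1akmt1, Eif1ad, Eif4ebp1 and Eif4enif1, and 1, Eif4e3, was lower (8.69% of all genes passed, 4.75% as higher and 3.94% as lower; 12.7% of the bright genes were higher). The members' median was 0.34, against 0.006 for all genes and 0.10 for the bright genes, and 34 of the 52 values lay above 0. Centring on bright genes gave 6 higher and 1 lower, 4 of which, Eef1akmt1, Eif1a, Eif4e2 and Eif4e3, passed under that centring, under quantile normalization and in the values as deposited. Under that centring 1958 of all 18193 genes passed, 743 of them higher. Without preCFUE replicate 1, 3 members passed, and without preCFUE replicate 3, 2 did. Only Eif4e2 and Eif4e3, of the 7, held whichever array was left out.

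Between MkP and preCFUE, both on the megakaryocyte and erythroid side, 16 members were lower in MkP and 0 higher (16.2% of all genes passed, 5.51% as higher and 10.7% as lower; 23.0% of the bright genes were lower). They were Eef1e1, Eif2b4, Eif3d, Eif4ebp1, Eif5b, Eif2b5, Eif4e2, Eif4ebp2, Eif1ad, Eif1a, Eif3c, Eif4enif1, Eif2b2, Eef1aknmt, Eif5a and Eef1akmt1. The members' median was -0.68, against 0.005 for all genes and -0.38 for the bright genes, and the arrays of 37 members (71.2%) did not overlap, against 37.2% of all genes and 61.2% of the bright genes. With quantile normalization 8 passed, all lower (median -0.31), and with centring on bright genes 10 did, 9 lower and 1, Eif5a2, higher (0.69). Of all 18193 genes, 2476 passed with the first (1297 higher) and 3734 with the second (2764 higher). Only 8 or 9 members passed without MkP replicate 1, MkP replicate 3 or preCFUE replicate 1, and 27 without CLP replicate 2.

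Against preGM, CLP had 21 lower members and 0 higher (18.3% of all genes passed, 5.07% as higher and 13.3% as lower; 31.5% of the bright genes were lower). Of these, 20 are described by role below and the other was Eif3f (-0.56), which lay outside the 20 largest. The members' median was -0.73, against 0.005 for all genes and -0.54 for the bright genes, and the arrays of 14 members (26.9%) did not overlap, against 5534 of 18193 genes (30.4%) and 399 of the 1246 bright genes. This count leaned on single arrays: it was 35 without CLP replicate 2, 8 without CLP replicate 1, 7 without CLP replicate 3, 8 without preGM replicate 1 and 7 without preGM replicate 2. With quantile normalization 7 passed, 4 lower and 3 higher (Eif4g3, 0.96, Eef2k, 0.95, and Eif4g2, 0.54). Of all 18193 genes 2300 passed then, 993 of them higher. With centring on bright genes 16 members did, 11 lower and 5 higher, the same 3 with Eef1a2 (0.61) and Eif4a3 (0.58). Under that centring 8806 of the 18193 genes passed, 7507 of them higher, and the median of all genes was 0.46. Eif4a3 lay between 11.6 and 28.1 over all arrays.

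**Figure D3:**
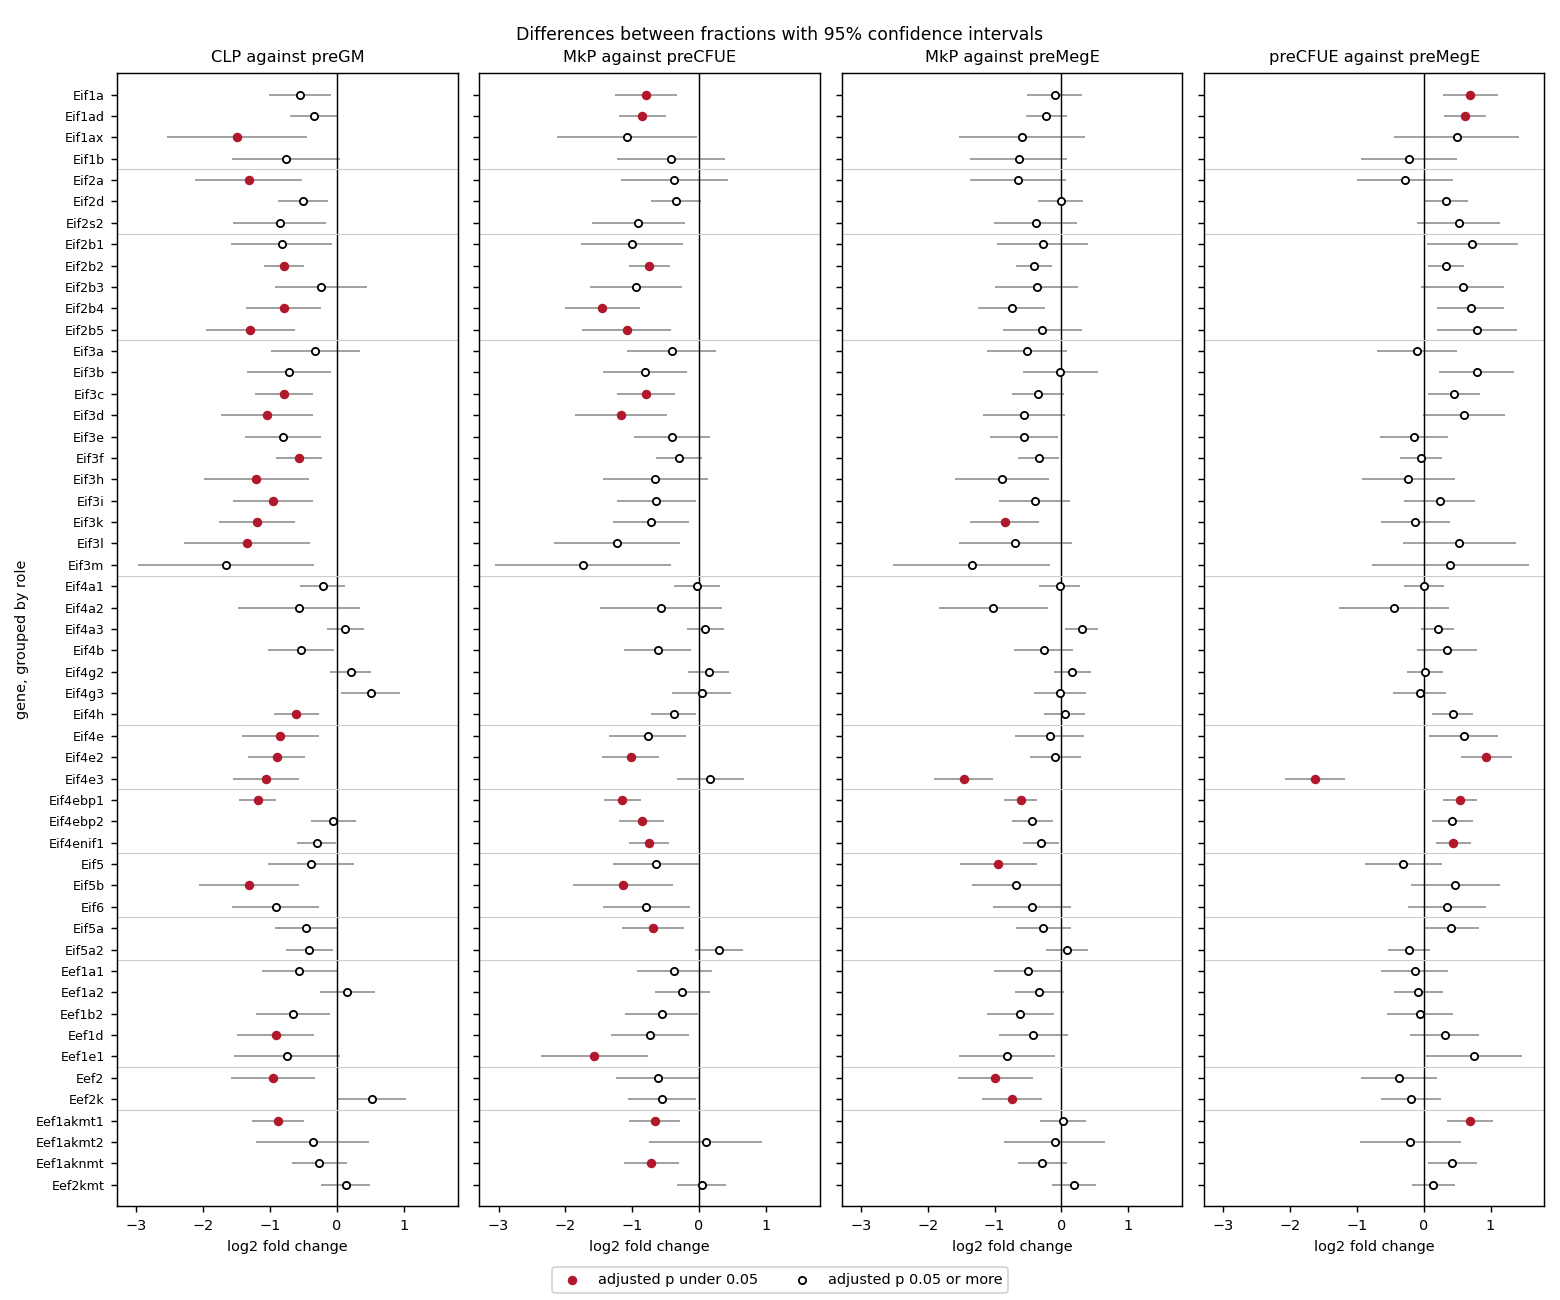
Log2 fold changes on the log2(intensity + 16) scale (horizontal axes) of the 52 genes (vertical axis, grouped by role) in 4 comparisons, with 95% confidence intervals as lines, filled red points for an adjusted p under 0.05 and open points otherwise. In CLP against preGM and in MkP against preCFUE every red point lies left of 0, and in preCFUE against preMegE Eif4e3 is the 1 red point on the left.

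Among the eIF4E-binding proteins, Eif4ebp1 was called in each of the 5 comparisons, the 1 member of which this held. It encodes 4E-BP1, which keeps eIF4E from eIF4G until mTORC1 phosphorylates it. Its intensities were 226, 208 and 173 in CLP, 508, 469 and 454 in MkP, 1031, 979.8 and 1237 in preCFUE, 684, 691, 649, 836 and 835 in preMegE and 448, 441 and 550.4 in preGM. The CLP arrays were the lowest, the preCFUE arrays the highest, and the ranges of preCFUE, preMegE and preGM did not overlap, while MkP overlapped with preGM. The log2 fold change was -1.18 ± 0.13 (SE, adjusted p = 3.55e-05) in CLP against preGM, -1.15 ± 0.13 (SE, adjusted p = 2.58e-05) in MkP against preCFUE, -0.61 ± 0.12 (SE, adjusted p = 0.00343) in MkP against preMegE, 0.54 ± 0.12 (SE, adjusted p = 0.00791) in preCFUE against preMegE and 0.61 ± 0.12 (SE, adjusted p = 0.00289) in preMegE against preGM. The first 2 calls held in each of the 28 alternatives that gave a value. The call in preCFUE against preMegE was lost with quantile normalization, with centring on bright genes and without preCFUE replicate 3. That in MkP against preMegE was lost with both of these scalings and with the replicate number as a block. That in preMegE against preGM was lost only with this block. Its probe set is of a type that may also read related transcripts.

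Eif4ebp2, a second binding protein, averaged 393 ± 48.5 in CLP, 338 ± 38.1 in MkP, 627 ± 60.6 in preCFUE, 464 ± 52.7 in preMegE and 414 ± 108 in preGM. Its MkP arrays lay below its preCFUE arrays, and the difference was -0.86 ± 0.16 (SE, adjusted p = 0.00197), while with the mean over its 5 probe sets it shrank to -0.15 and the call was lost. Eif4enif1, whose product 4E-T carries eIF4E into the nucleus, had 195, 240.3 and 192 in CLP, 203, 236 and 173 in MkP, 371, 334 and 347 in preCFUE, 281, 208, 264, 289 and 233 in preMegE and 277, 286 and 222 in preGM. Its preCFUE arrays were the highest, without overlap with any other fraction, at 0.44 ± 0.12 (SE, adjusted p = 0.0372) against preMegE and -0.75 ± 0.14 (SE, adjusted p = 0.00192) for MkP against preCFUE. The first of these calls held in 17 of 28 alternatives and the second in 27 of 28.

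The 3 cap-binding genes of the eIF4E family all passed the F test. Eif4e3 encodes an atypical cap-binding protein. Its intensities were 362, 252 and 139 in CLP, 181, 169.9 and 158 in MkP, 156, 122 and 174 in preCFUE, 475, 433, 539, 516 and 518 in preMegE and 437, 565 and 527 in preGM. All MkP and preCFUE arrays lay below all preMegE and preGM arrays, and CLP was spread between them. The log2 fold change was -1.46 ± 0.21 (SE, adjusted p = 0.000318) in MkP against preMegE, -1.63 ± 0.21 (SE, adjusted p = 0.000155) in preCFUE against preMegE and -1.06 ± 0.23 (SE, adjusted p = 0.00836) in CLP against preGM. The first 2 calls held in all 29 alternatives, and a second probe set of the gene passed in the same direction in these 3 comparisons. The third was lost with quantile normalization and in a fit of the 2 fractions alone.

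Eif4e2 encodes 4EHP, which binds the cap without recruiting eIF4G and acts as a repressor on some messages. Its intensities were 397, 458 and 285 in CLP, 639.8, 699 and 461 in MkP, 1181, 1121 and 1368 in preCFUE, 680.2, 572, 545, 683 and 685 in preMegE and 845, 787 and 540.1 in preGM. The preCFUE arrays stood above all others, and the CLP arrays were below all others. It was higher in preCFUE than in preMegE (0.94 ± 0.18 SE, adjusted p = 0.0035), lower in MkP than in preCFUE (-1.02 ± 0.20 SE, adjusted p = 0.00277) and lower in CLP than in preGM (-0.90 ± 0.20 SE, adjusted p = 0.00859). The first 2 calls held in all 28 alternatives that gave a value. In CLP against preGM another probe set of Eif4e2, with a mean of 48.2, passed the other way in a fit over all probe sets (0.70, adjusted p = 0.00914), and averaging its 5 probe sets gave -0.21 and no call.

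Eif4e itself, the cap-binding subunit of eIF4F, averaged 203 ± 81.3 in CLP, 334 ± 77.2 in MkP, 577 ± 96.4 in preCFUE, 377 ± 61.5 in preMegE and 368 ± 94.4 in preGM. It was lower in CLP than in preGM (-0.85 ± 0.27 SE, adjusted p = 0.0434), a call that held in 11 of 28 alternatives. In preCFUE against preMegE the difference was 0.60 and did not pass (adjusted p = 0.178).

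**Figure D4:**
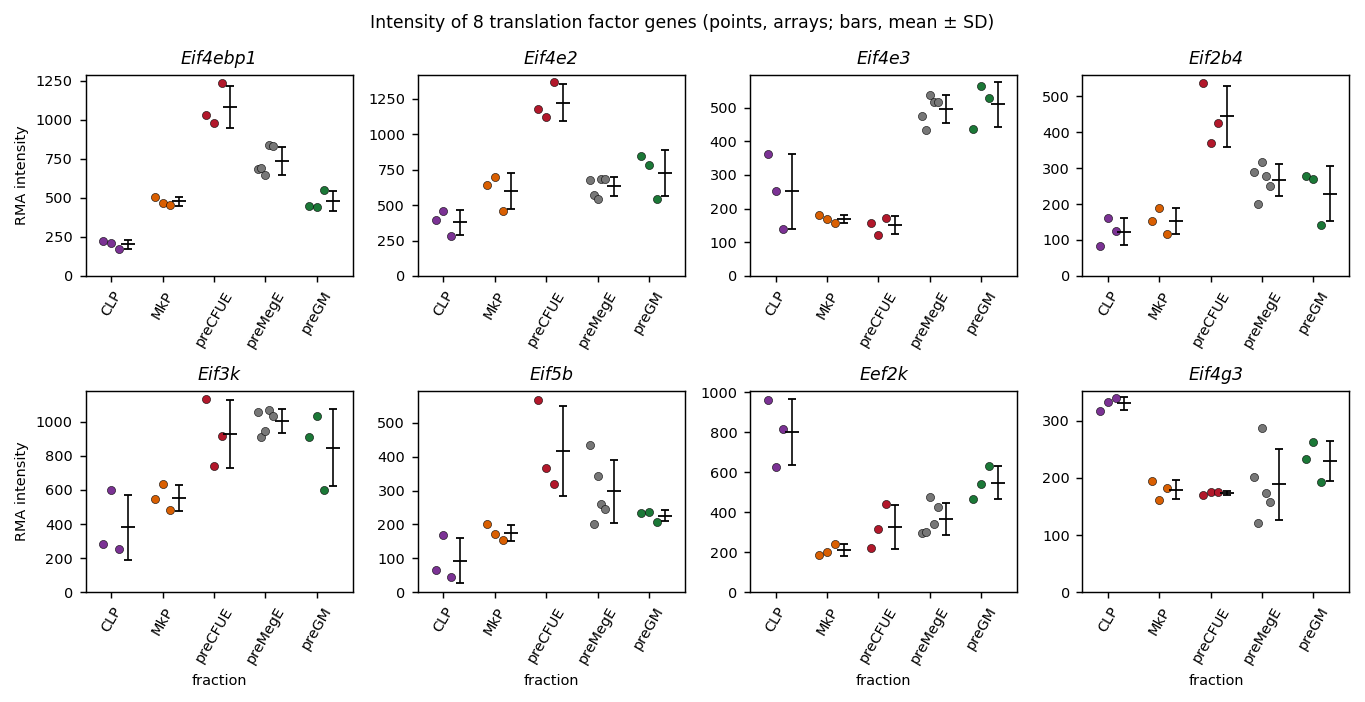
RMA intensity (vertical axes, linear, from 0) of 8 translation factor genes in the arrays of each fraction (points), with the mean and SD beside them. Eif4ebp1, Eif4e2 and Eif2b4 are highest in preCFUE, Eif4e3 is low in MkP and preCFUE, and Eef2k and Eif4g3 are highest in CLP.

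Of 7 genes of eIF4A, eIF4B, eIF4G and eIF4H, some of them outside eIF4F itself, 2 passed the F test, Eif4g3 and Eif4h. Eif4g3, which encodes the scaffold eIF4GII, had 318, 333 and 339.6 in CLP, 194, 161 and 182 in MkP, 169.8, 174 and 175 in preCFUE, 202, 121, 288, 174 and 157 in preMegE and 234, 263 and 192 in preGM. The CLP arrays were the highest and did not overlap with any other fraction. CLP against preGM gave 0.51 ± 0.21 (SE, adjusted p = 0.0974), which did not pass, whereas it passed with quantile normalization (0.96, adjusted p = 0.00206) and with centring on bright genes (0.96, adjusted p = 0.00273). Eif4h, a cofactor of the helicase, averaged 3023 ± 481 in CLP and 4574 ± 172 in preGM and was lower in CLP (-0.61 ± 0.16 SE, adjusted p = 0.0204), a call lost under both of these scalings. Eif4a1 and Eif4a2, the helicases, Eif4a3 of the exon junction complex, Eif4b and Eif4g2 passed neither the F test nor any of the 5 comparisons. The Eif4a1 means ran from 1204 ± 269.5 in CLP to 1393 ± 210.0 in preMegE, and the 95% interval of MkP over preMegE was -0.33 to 0.28.

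All 3 genes of eIF2 and of initiator tRNA delivery passed the F test, and 4 of the 5 eIF2B subunit genes did. Eif2b4, the delta subunit of the exchange factor, had 84.6, 160.3 and 125 in CLP, 154, 188 and 118 in MkP, 537, 369.8 and 424 in preCFUE, 288, 199, 316, 277 and 251 in preMegE and 278, 268 and 141 in preGM. The preCFUE arrays lay above all the others, and MkP lay below preMegE without overlap. MkP against preCFUE gave -1.45 ± 0.26 (SE, adjusted p = 0.00172), which held in all 28 alternatives, and CLP against preGM gave -0.80 ± 0.26 (SE, adjusted p = 0.0495), which held in 8 of 28. Against preMegE, preCFUE was at 0.70 and did not pass (adjusted p = 0.0884), though it did under both other scalings (0.59 with quantile normalization and 0.57 with centring on bright genes).

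Eif2b5, the catalytic epsilon subunit, had 28.1, 94.5 and 45.3 in CLP, 65.5, 76.7 and 114 in MkP, 247, 174 and 171 in preCFUE, 144, 68.3, 126, 126 and 79.0 in preMegE and 156, 153 and 135 in preGM. Its CLP and MkP arrays lay below its preGM and preCFUE arrays, and CLP against preGM gave -1.30 ± 0.31 (SE, adjusted p = 0.0134) and MkP against preCFUE -1.08 ± 0.31 (SE, adjusted p = 0.0285). The first call was lost without CLP replicate 1 or CLP replicate 3. Eif2b2, the beta subunit, was lower in the same 2 comparisons (-0.79 and -0.74), and neither call passed under quantile normalization or centring on bright genes. Eif2b3 averaged 77.3 ± 23.7 in MkP and 169 ± 70.8 in preCFUE and passed the F test only, while Eif2b1 passed nothing.

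Eif2a, which can deliver the initiator tRNA without eIF2, averaged 150.3 ± 109 in CLP, 206 ± 43.7 in MkP, 275 ± 83.4 in preCFUE, 331 ± 57.6 in preMegE and 352 ± 96.5 in preGM. It was lower in CLP than in preGM (-1.32 ± 0.37 SE, adjusted p = 0.0285), although CLP replicate 2, at 272, lay above preGM replicate 3, at 240.2. This call held in 21 of 28 alternatives. It was lost with quantile normalization, with the Gapdh covariate and without CLP replicate 1 or 3 or preGM replicate 1 or 2. Eif2d, which also binds tRNA on the ribosome, and Eif2s2, the beta subunit of eIF2, passed the F test but no comparison. Eif2d was at 256 ± 71.1 in CLP and 362 ± 21.7 in preGM (adjusted p = 0.0552), and Eif2s2 at 781 ± 394 in CLP and 1378 ± 477 in preGM (adjusted p = 0.0798).

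The eIF3 complex, the scaffold on the small ribosomal subunit, is represented by 11 subunit genes, of which 10, all but Eif3a, passed the F test. In CLP against preGM 7 of 11 were lower and 0 higher, while 13.3% of all genes and 31.5% of the bright genes were lower. The 7 were Eif3l (-1.34), Eif3h (-1.20), Eif3k (-1.20), Eif3d (-1.04), Eif3i (-0.95), Eif3c (-0.79) and Eif3f (-0.56). The arrays of Eif3c and Eif3f did not overlap between these fractions, and those of the other 5 did, CLP replicate 2 being the highest CLP array of each. With quantile normalization only Eif3k of the 7 was called. Eif3l held in 11 of 28 alternatives, Eif3d in 17, Eif3i in 19, and Eif3h and Eif3c in 20 each.

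Eif3k, for example, had 282, 601 and 256 in CLP, 544, 635 and 479.7 in MkP, 1135, 738 and 915 in preCFUE, 1059, 912, 944, 1070.2 and 1034 in preMegE and 912, 1035 and 599.5 in preGM. CLP replicate 2 lay just above the lowest preGM array, and all MkP arrays lay below all preMegE arrays. CLP against preGM gave -1.20 ± 0.27 (SE, adjusted p = 0.00952) and MkP against preMegE -0.85 ± 0.24 (SE, adjusted p = 0.0364). The first held in 27 of 28 alternatives and the second in 19 of 28. Eif3d had 214, 649 and 269.6 in CLP, 403, 580.4 and 351 in MkP, 1274, 918 and 847 in preCFUE, 754, 533, 761, 609 and 621 in preMegE and 796, 806 and 555 in preGM, with MkP below preCFUE throughout (-1.17 ± 0.32 SE, adjusted p = 0.023).

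Eif3c was the other subunit lower in MkP than in preCFUE (-0.80 ± 0.20 SE, adjusted p = 0.0153), and its probe set may also read related transcripts. This call held in 21 of 28 alternatives and was lost with quantile normalization, centring on bright genes and the mean over probe sets. Within the complex, Eif3m had the widest range of fraction means, 2.17 on the log2 scale between preCFUE and CLP, which were not compared by a test. It averaged 206 ± 228 in CLP and 577 ± 344 in preGM (adjusted p = 0.0718). It was at 198 ± 31.1 in MkP and 732 ± 319.6 in preCFUE (-1.74), which did not pass either (adjusted p = 0.0709). Its CLP arrays, 82.8, 469 and 65.9, were scattered, with replicate 2 far above the other 2. Eif3b and Eif3e passed the F test and no comparison. In preCFUE against preMegE, 0 of 11 subunits passed (8.69% of all genes did), with a median of 0.24.

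Of the 4 genes of start site selection, 3 passed the F test and Eif1b did not. Eif1ad, which encodes a protein with an eIF1A domain, had 243, 185 and 141 in CLP, 110.0, 96.4 and 83.4 in MkP, 202, 154 and 206 in preCFUE, 117, 97.7, 120.3, 111 and 129.6 in preMegE and 269.6, 223 and 228 in preGM. All preMegE arrays lay below all preGM and preCFUE arrays, and the difference was -0.96 ± 0.15 (SE, adjusted p = 0.000403) against preGM, 0.62 ± 0.15 (SE, adjusted p = 0.0139) for preCFUE against preMegE and -0.85 ± 0.16 (SE, adjusted p = 0.00269) for MkP against preCFUE. A second probe set of the gene pointed the other way in preMegE against preGM without passing (0.49, adjusted p = 0.768), and with the mean over both the call was lost. The calls in preCFUE against preMegE and in MkP against preCFUE were also lost with that mean and with centring on bright genes. The former was lost without preCFUE replicate 1 or 3 too, and the latter with quantile normalization. Eif1a had 451, 522 and 364 in CLP, 402, 539 and 337 in MkP, 831, 683 and 708 in preCFUE, 553, 342, 549.7, 461 and 381 in preMegE and 753, 729.8 and 509.9 in preGM. Its preCFUE arrays were above all preMegE and MkP arrays, at 0.70 ± 0.19 (SE, adjusted p = 0.0366) and, for MkP against preCFUE, -0.80 ± 0.21 (SE, adjusted p = 0.0213). The first call held in 18 of 28 alternatives and the second in 22, and both were lost with the mean over probe sets. The probe set of Eif1a may also read related transcripts. Eif1ax, a gene of the same factor eIF1A on the X chromosome, was lower in CLP (313 ± 250.2) than in preGM (821 ± 416), a call with an adjusted p of 0.0488 that held in 9 of 28 alternatives. Eif1b passed no comparison either.

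At the joining step, Eif5b, whose product brings the ribosomal subunits together, had 65.1, 169.8 and 44.8 in CLP, 201, 171 and 154 in MkP, 568, 365 and 318 in preCFUE, 436, 203, 343, 262 and 244 in preMegE and 233, 238 and 207 in preGM. All CLP and MkP arrays were below all preGM and preCFUE arrays, and CLP against preGM gave -1.31 ± 0.35 (SE, adjusted p = 0.0214) and MkP against preCFUE -1.14 ± 0.35 (SE, adjusted p = 0.0379). The first call held in 22 of 29 alternatives. It was lost with the mean over probe sets and without CLP replicate 1 or 3 or preGM replicate 1 or 2. The second was lost in 9 of 29 alternatives, among them the omission of any 1 MkP array. Eif5, the activator of eIF2's GTPase, averaged 870.2 ± 154 in MkP and 1684 ± 242 in preMegE (-0.94 ± 0.27 SE, adjusted p = 0.0392) and was the 1 gene called in a comparison without passing the F test. Eif6, which keeps free large subunits apart, passed the F test and no comparison. Eif5a, the hypusine-bearing factor that helps ribosomes over difficult stretches, averaged 3838 ± 633 in MkP and 6154 ± 577 in preCFUE (-0.69 ± 0.21 SE, adjusted p = 0.042), a call lost in 12 of 28 alternatives, quantile normalization, centring on bright genes and the mean over probe sets among them. Its dim paralog Eif5a2, between 8.48 and 31.3 over all arrays, passed nothing.

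Of the 5 eEF1 genes, 2 passed the F test, Eef1d and Eef1e1. Eef1a1, which delivers tRNAs to the ribosome, averaged 8080.3 ± 4248 in CLP, 8209.6 ± 1521 in MkP, 10554 ± 1414 in preCFUE, 11548 ± 605 in preMegE and 11064 ± 1910.0 in preGM and passed nothing, as did Eef1a2 and Eef1b2. Eef1d, a subunit of its exchange factor, was lower in CLP (965 ± 433) than in preGM (1715 ± 335), at -0.92 ± 0.27 (SE, adjusted p = 0.0337). This call held in 21 of 28 alternatives and was lost with quantile normalization, centring on bright genes and the Gapdh covariate. Of 3 other Eef1d probe sets 1 had the same sign, and the probe set used may also read related transcripts. Eef1e1, which belongs to the tRNA synthetase complex, had 64.6, 179.6 and 78.0 in CLP, 104, 149 and 105 in MkP, 477, 295 and 392 in preCFUE, 258, 177, 215, 213 and 241 in preMegE and 283, 222 and 83.2 in preGM. Its preCFUE arrays exceeded all others, and MkP against preCFUE gave -1.57 ± 0.37 (SE, adjusted p = 0.0103), lost only without preCFUE replicate 1, with the highest adjusted p of its 29 alternatives, 0.0512.

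Eef2, the translocase, and Eef2k, the kinase that inhibits it, were both lower in MkP than in preMegE. Eef2 had 1128, 1672 and 812 in CLP, 1100.0, 1664 and 1019 in MkP, 2253, 1565 and 1923 in preCFUE, 3416, 1956, 3323, 1962 and 2045 in preMegE and 2564, 2484 and 1798 in preGM. MkP lay below preMegE and CLP below preGM without overlap, at -0.99 ± 0.26 (SE, adjusted p = 0.0282) and -0.96 ± 0.30 (SE, adjusted p = 0.0394). The first call held in 23 of 28 alternatives and the second in 18, which do not include quantile normalization, centring on bright genes or the Gapdh covariate. Eef2k had 959, 627 and 816 in CLP, 188, 201 and 242 in MkP, 221, 318 and 438 in preCFUE, 294, 298, 473, 341 and 425 in preMegE and 465, 543 and 633 in preGM. Its CLP arrays were the highest of all but for 1 preGM array above the lowest of them, and its MkP arrays lay below all preMegE arrays (-0.74 ± 0.21 SE, adjusted p = 0.0379). CLP against preGM gave 0.53 ± 0.24 (SE, adjusted p = 0.126), which did not pass, and which passed with quantile normalization (0.95, adjusted p = 0.0489) and with centring on bright genes (0.98, adjusted p = 0.0122). The probe set of Eef2k may also read related transcripts, and its MkP call held in 16 of 28 alternatives.

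Of the 4 methyltransferases that modify elongation factors, Eef1akmt1 and Eef1aknmt passed the F test. Eef1akmt1 had 103, 176 and 171 in CLP, 249, 259.6 and 202 in MkP, 378, 335 and 443 in preCFUE, 231, 203, 241, 253 and 229 in preMegE and 274, 349 and 235 in preGM. The preCFUE arrays were above all arrays but 1 of preGM, and the CLP arrays were below all arrays of every other fraction. It was higher in preCFUE than in preMegE (0.69 ± 0.16 SE, adjusted p = 0.0138). This call held in 24 of 28 alternatives and was lost with the mean over its probe sets. Eef1akmt1 was lower in MkP than in preCFUE (-0.67 ± 0.18 SE, adjusted p = 0.0216), which held in 22 of 28. It was also lower in CLP than in preGM (-0.88 ± 0.18 SE, adjusted p = 0.0059), which held in 25 of 28. The MkP and CLP calls were both lost with quantile normalization and with centring on bright genes. Eef1aknmt was lower in MkP (28.9 ± 2.02) than in preCFUE (59.2 ± 20.3), at -0.71 ± 0.19 (SE, adjusted p = 0.0218). Eef1akmt2 and Eef2kmt passed nothing.

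Genes that act beside these factors were counted from 5 further lists. In preMegE against preGM, 3 of 9 genes of the eIF2 kinases, phosphatase subunits and targets were higher (2.81% of all genes were). They were Ddit3 (1.01), an effector of the stress response, and Ppp1r15a (0.87) and Ppp1r15b (0.82), which direct the eIF2 phosphatase. Ppp1r15a had 68.9, 78.8 and 59.2 in CLP, 105, 98.2 and 73.4 in MkP, 93.0, 71.5 and 68.4 in preCFUE, 128, 121, 135, 123 and 123 in preMegE and 68.8, 57.7 and 58.3 in preGM. Its preMegE arrays were the highest, without overlap with any other fraction. In MkP against preMegE 4 of 9 were lower (6.37% of all genes were), Ppp1r15a (-0.40), Ppp1r15b (adjusted p = 0.00439), Ddit3 (-0.75) and Eif2ak1 (-0.41). This Ddit3 call was lost with quantile normalization and with centring on bright genes, and that of Eif2ak1 held in 15 of 28 alternatives. In preCFUE against preMegE 2 of 9 were lower (3.94% of all genes were), Ddit3 (-0.68), which held in 21 of 28 alternatives, and Ppp1r15a (-0.61), which held in all 28. Eif2ak1, the heme-regulated kinase, was lower in MkP than in preCFUE (-0.51) and in CLP than in preGM (-0.55, adjusted p = 0.0114), and the CLP value turned to 0.04 when its probe sets were averaged. Both of these calls were lost with quantile normalization and with centring on bright genes.

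Of 14 genes of mTORC1 and eIF4E control, Pdcd4, an inhibitor of the eIF4A helicase, had the largest fold change of the 5 comparisons on the log2(intensity + 16) scale. It had 1017, 1072 and 856 in CLP, 3924, 3986 and 3787 in MkP, 1186, 1255 and 1276 in preCFUE, 1995, 1633, 1927, 2079.7 and 1874 in preMegE and 1425, 1572 and 1779 in preGM. The MkP arrays stood above all others, and no 2 of MkP, preMegE and preCFUE overlapped. Pdcd4 was higher in MkP than in preMegE (1.03 ± 0.09 SE, adjusted p = 4.16e-06) and than in preCFUE (1.64 ± 0.10 SE, adjusted p = 7.66e-08), and lower in preCFUE than in preMegE (-0.61 ± 0.09 SE, adjusted p = 0.000653), calls that held in all 29 alternatives. In CLP against preGM it was lower (-0.69 ± 0.10 SE, adjusted p = 0.000602), in 26 of 29. Ddit4, an inhibitor of mTORC1, was lower in MkP (17.3 ± 2.06) and in preCFUE (32.2 ± 10.6) than in preMegE (81.2 ± 13.9), at -1.53 ± 0.18 (SE, adjusted p = 6.59e-05) and -1.02 ± 0.18 (SE, adjusted p = 0.0023), and higher in preMegE than in preGM (0.73). Larp1, which binds messages of ribosomal proteins, was lower in MkP than in preCFUE (-0.91) and in CLP than in preGM (-0.73). Both of these calls were lost with quantile normalization and with centring on bright genes, and the second held in 10 of 28 alternatives. No comparison called more than 2 of the 14, while 8.69% to 18.3% of all genes passed in the 5 comparisons.

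Mitochondrial translation factors, which the naming rule does not include, were higher in preCFUE than in preMegE for 4 of 8 genes and lower for 0. Of all genes 4.75% were higher and 3.94% lower. Gfm1, a mitochondrial elongation factor, averaged 634 ± 81.3 in preCFUE and 274 ± 56.6 in preMegE (1.18 ± 0.18 SE, adjusted p = 0.000584), without overlap. Gfm2 (0.81), Tufm (0.75) and Tsfm (0.69) were the other 3. In MkP against preCFUE 5 of 8 were lower (10.7% of all genes were), led by Gfm1 (-1.27 ± 0.20 SE, adjusted p = 0.00052), Mrrf (-0.96) and Gfm2 (-0.93). In CLP against preGM 1 of 8 was lower, Mrrf (-1.19), while 13.3% of all genes were.

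Of 13 termination, recycling and poly(A) factors, 6 passed in MkP against preCFUE, 5 lower and 1 higher (10.7% of all genes were lower and 5.51% higher). Gspt1, the release factor eRF3, averaged 264 ± 56.7 in MkP and 756 ± 162 in preCFUE (-1.46 ± 0.30 SE, adjusted p = 0.00413), and Hbs1l (-1.35) and Denr (-1.27), which act in ribosome rescue and recycling, went with it. Gspt2, a second eRF3 gene, was the 1 that was higher in MkP (0.82 ± 0.25 SE, adjusted p = 0.0388), and it was lower in preMegE than in preGM (-0.98 ± 0.23 SE, adjusted p = 0.0111) and in CLP than in preGM (-1.40 ± 0.25 SE, adjusted p = 0.00252). In preCFUE against preMegE 2 of 13 were higher (4.75% of all genes were), Pabpc4 (1.13), which binds poly(A) tails, and Etf1 (0.66), the release factor eRF1. The call of Pabpc4 held in all 28 alternatives and that of Etf1 in 18, which do not include quantile normalization or centring on bright genes. In CLP against preGM 4 of 13 were lower (13.3% of all genes were), Gspt2, Mcts1 (-1.16), Gspt1 (-0.98) and Paip1. The call of Mcts1 held in 13 of 28 alternatives and that of Gspt1 in 20 of 28. Of 8 hypusine, diphthamide and selenocysteine factors, 3 were lower in MkP than in preCFUE (10.7% of all genes were). They were Dohh (-1.24) and Dhps (-1.01), which make the hypusine of eIF5A, and Dph2 (-0.83). In CLP against preGM 2 of 8 were lower (13.3% of all genes were), Dhps (-1.20) and Eefsec (-0.94).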

How the data were processed

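RNA from 5 progenitor fractions of mouse bone marrow was measured on 17 arrays. Per the labels' protocols, cells were sorted into lysis buffer, RNA was column-purified, amplified in 2 rounds and labelled, and arrays were scaled to a common median. The authors deposited linear intensities made with RMA, per the design text and the submitters' processing notes, and the design text's filter on SD over mean (above 0.5) was not applied to them. Groups came from the gates in the titles, and a description that names 1 other gate for all arrays was not used. Median array intensity ran from 16.0 to 19.1. The number of arrays limits the precision.

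Of 45101 probe sets, 34958 had 1 gene symbol. The brightest probe set of each gene over all arrays was kept, giving 18193 genes. Log2 values were computed from the deposited intensities as log2(intensity + 16), a scale on which fold changes of dim genes are understated. They were fitted with limma 3.58.1 (lmFit and eBayes, R 4.3.3) with a term per fraction over all 17 arrays, a moderated F test and 5 contrasts, with Benjamini-Hochberg adjustment over all genes and a threshold of 0.05. A member passed, was called, or was higher or lower where its adjusted p was under 0.05. Intervals are 95% confidence intervals of the fit. The steps were tested on simulated data.

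The members, the pathway and marker lists and the motifs were chosen with earlier results of these data known. Named genes are the 20 members with the widest range among those passing the F test, every member called per comparison (the 20 largest changes where more were), members that passed nothing, up to 3 members per further list and comparison, with others that complete a count, and the genes of the gates. Eif3f and the eIF4G members given under other scalings were named after their values were seen. Planned protein sequences were not used here, and promoters were shown in their place.

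Alternatives were a pseudocount of 1 or 64, quantile normalization, median centring, the mean over a gene's probe sets, leaving out dim genes (below the 40th percentile), the SD over mean filter, array weights, the Gapdh 3-prime over 5-prime ratio as a covariate, the replicate number as a block, leaving out each array, and a fit of the 2 fractions alone. Centring on bright genes was added after seeing the data.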

Additional observations from a re-analysis of the deposited data

Results flagged for a closer look

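Within the 5 preMegE arrays, 3 of the 52 translation factor genes had 1 array far from the other 4 by Dixon's criterion, which chance meets in about 1 of 20 groups. Eef1aknmt was at 55.88 in preMegE replicate 3, against 32.75 to 37.03 in the others. Eif2b2 was at 598.3 in preMegE replicate 3, against 478.9 to 511.6 in the others. Eef2kmt was at 38.85 in preMegE replicate 5, against 30.28 to 32.31 in the others. Fractions of 3 arrays were not examined in this way.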

How the results depend on the processing

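Of 51 calls of named members, all kept their direction in each alternative that gave a value. Quantile normalization lost 27 of them, centring on bright genes 24, the mean over probe sets 16, a fit of both fractions alone 18, the Gapdh ratio 12 and leaving out 1 array between 0 and 17, while array weights and leaving out dim genes lost 0. The cause of these losses was not tested, except that a filter on SD over mean left 6 members to test. The number of arrays and the signal of dim genes limit what these tests can show.

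Members passing the F test numbered 6 with the SD over mean filter and 25 to 43 with 1 array left out, against 37. In preMegE against preGM the count was 0 with that filter (of 6 tested, by limma), 10 with array weights and 2 to 3 with 1 array left out, against 2. In MkP against preMegE it was 10 with the Gapdh ratio, 2 with the filter, 21 with array weights, 18 in a fit of both fractions alone and 2 to 13 with 1 array left out, against 6. In preCFUE against preMegE it was 14 with the Gapdh ratio, 1 with the filter, 17 with array weights, 4 with the mean over probe sets, 13 in a fit of both fractions alone and 2 to 9 with 1 array left out, against 7. In MkP against preCFUE it was 5 with the filter, 33 with array weights, 10 with centring on bright genes, 30 in a fit of both fractions alone, 8 with quantile normalization and 8 to 27 with 1 array left out, against 16. In CLP against preGM it was 8 with the Gapdh ratio, 3 with the filter, 37 with array weights, 2 in a fit of both fractions alone, 7 with quantile normalization and 7 to 35 with 1 array left out, against 21. Outside the members, the mean over probe sets reversed Eif2ak1 in CLP against preGM, to 0.039.

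Over 30 pairs of arrays with the same replicate number the mean correlation of deviations was -0.005 (-0.543 to 0.508), and 11 were over 0.1, so the numbers were not taken to pair arrays; whether they mark a shared sort is not given. With the replicate number as a block, 26 of the 51 named calls were lost, 24 members passed the F test, and the counts were 1 in preMegE against preGM, 1 in MkP against preMegE, 4 in preCFUE against preMegE, 10 in MkP against preCFUE and 10 in CLP against preGM.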
